A study of Mus musculus with 6 samples.

Results

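Translation initiation and elongation factors are the proteins that load ribosomes onto messenger RNA, choose the start codon and carry each amino acid into the growing chain. Their genes were taken by name, as every row of the deposited table whose symbol begins with Eif1 to Eif6 or with Eef1 or Eef2, which gave 87 of 21959 genes. Of these, 65 had enough reads to be tested, among 14259 tested genes in all. The 22 others comprised 18 copies of Eif1ad and Eif4a3 with 1 read among them over the 6 libraries. The last 4 were Eif3j2, Eif4e1b, Eif4ebp3 and Eef1akmt3, each with at most 15 reads in any library. The libraries are bulk RNA sequencing of mouse paraventricular thalamus, a midline thalamic nucleus that receives pain and arousal signals. One group of 3 libraries (replicates 1 to 3) came from mice with chronic constriction injury (CCI), a model of neuropathic pain made by loosely tying a peripheral nerve. The control group of 3 libraries (replicates 4 to 6) came from mice with no treatment. All are labelled wild type, no sham operation is named among the groups, and strain, sex, age and time after injury are not given in the sources used here. The design text gives 30 mice to each group, and how they were divided among libraries is not given in the sources used here. The p-values therefore measure the scatter among these 6 libraries alone, part of which may be technical.

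In textbook outline, eIF2 brings the initiator tRNA to the small ribosomal subunit, and eIF1, eIF1A and eIF5 govern recognition of the start codon. The large complex eIF3 holds the parts together, and the cap-binding complex eIF4F recruits the messenger RNA. After each round eIF2 must be recharged with GTP by its exchange factor eIF2B. Kinases that phosphorylate eIF2 in stress turn it into an inhibitor of eIF2B, which lowers overall protein synthesis, a step known as the integrated stress response. In elongation, eEF1A delivers aminoacyl-tRNA, the eEF1B subunits recharge it, and eEF2 moves the ribosome along the message until its own kinase, eEF2K, switches it off. In neurons these steps are regulated by activity and are tied to synaptic plasticity.

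Total counts were 7989139 to 10529886 in the CCI libraries and 12337448 to 15438268 in the control libraries. The factor genes took 0.749 to 0.774% of the counts in CCI and 0.776 to 0.838% in control. Levels below are CPM, read counts scaled to library size with edgeR's TMM factors. Control replicate 5 stood apart from the other controls (Pearson r of 0.973 and 0.976 on log2(FPKM + 1), against 0.995 between replicates 4 and 6). Thalamic markers were present in every library, but their summed level was 1745 to 2433 CPM in CCI and 5473 to 8119 CPM in control, with 8 of 10 lower. Of 9 tested hippocampal and cortical markers 7 were higher (summed 185 to 223 CPM in CCI and 72.6 to 94.2 CPM in control). Of 10 oligodendrocyte markers 8 were higher (summed 18573 to 24475 CPM in CCI and 7184 to 13932 CPM in control). Of 10 neuronal markers 2 were higher, 3 lower and 5 did not pass (median log2 fold change -0.32). Their summed level was 3903 to 4266 CPM in CCI and 7737 to 10122 CPM in control. Much of that sum was Snap25, with a mean of 1472 CPM in CCI and 5553 CPM in control. Of 10 astrocyte markers 2 were higher, 3 lower and 5 did not pass (median log2 fold change -0.28). Their summed level was 3717 to 4443 CPM in CCI and 8276 to 11122 CPM in control. Here Aldoc alone had a mean of 1117 CPM in CCI and 5333 CPM in control. Of 10 microglial markers 2 were higher and 1 lower (summed 213 to 306 CPM in CCI and 301 to 349.6 CPM in control), and of 8 endothelial markers 3 were higher and 1 lower (summed 218 to 246 CPM in CCI and 248 to 262 CPM in control). Of 8 choroid plexus markers 2 were higher (summed 2109 to 2972 CPM in CCI and 299 to 4172 CPM in control), and of 6 habenular markers 3 were lower (summed 211 to 587 CPM in CCI and 474 to 1618 CPM in control). Beside these marker counts, 27.0% of all tested genes were called higher and 25.3% lower. No marker was at 0 in all libraries. The part of these differences in the factor gene results was not tested, and in bulk tissue fewer cells of a type and less RNA per cell cannot be told apart.

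More factor genes were lower than higher in CCI. The 5 genes of the exchange factor eIF2B, the cap-binding protein gene Eif4e, the start codon factor genes Eif1 and Eif1a and the eIF2 alpha subunit gene (Eif2s1) fell. The eIF2 kinase genes Eif2ak2 and Eif2ak4, the eEF2 kinase gene Eef2k, the neuronal elongation factor gene Eef1a2, Eif4g1 and Eif1b rose. Of the 65 tested, 9 rose, 31 fell and 25 did not pass an adjusted p of 0.05 in edgeR's quasi-likelihood test across all genes. Over all 14259 tested genes 27.0% were called higher and 25.3% lower (52.3% in all), against 13.8% and 47.7% of the factor genes. A fold change is given as log2 of CCI over control ± an approximate standard error. That error was worked back from the test, as the absolute log2 fold change over the square root of the F statistic. A fold in plain digits is the same fitted value without the log. The median log2 fold change was -0.57 over the factor genes and 0.06 over all tested genes. On TMM-scaled CPM the 3 CCI libraries lay wholly above the 3 controls in 11 factor genes and wholly below them in 35. The shares of all tested genes were 33.6% and 29.4%. Such separation depends on the scaling, and here and below it was not counted without the TMM factors.

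**Figure D1:**
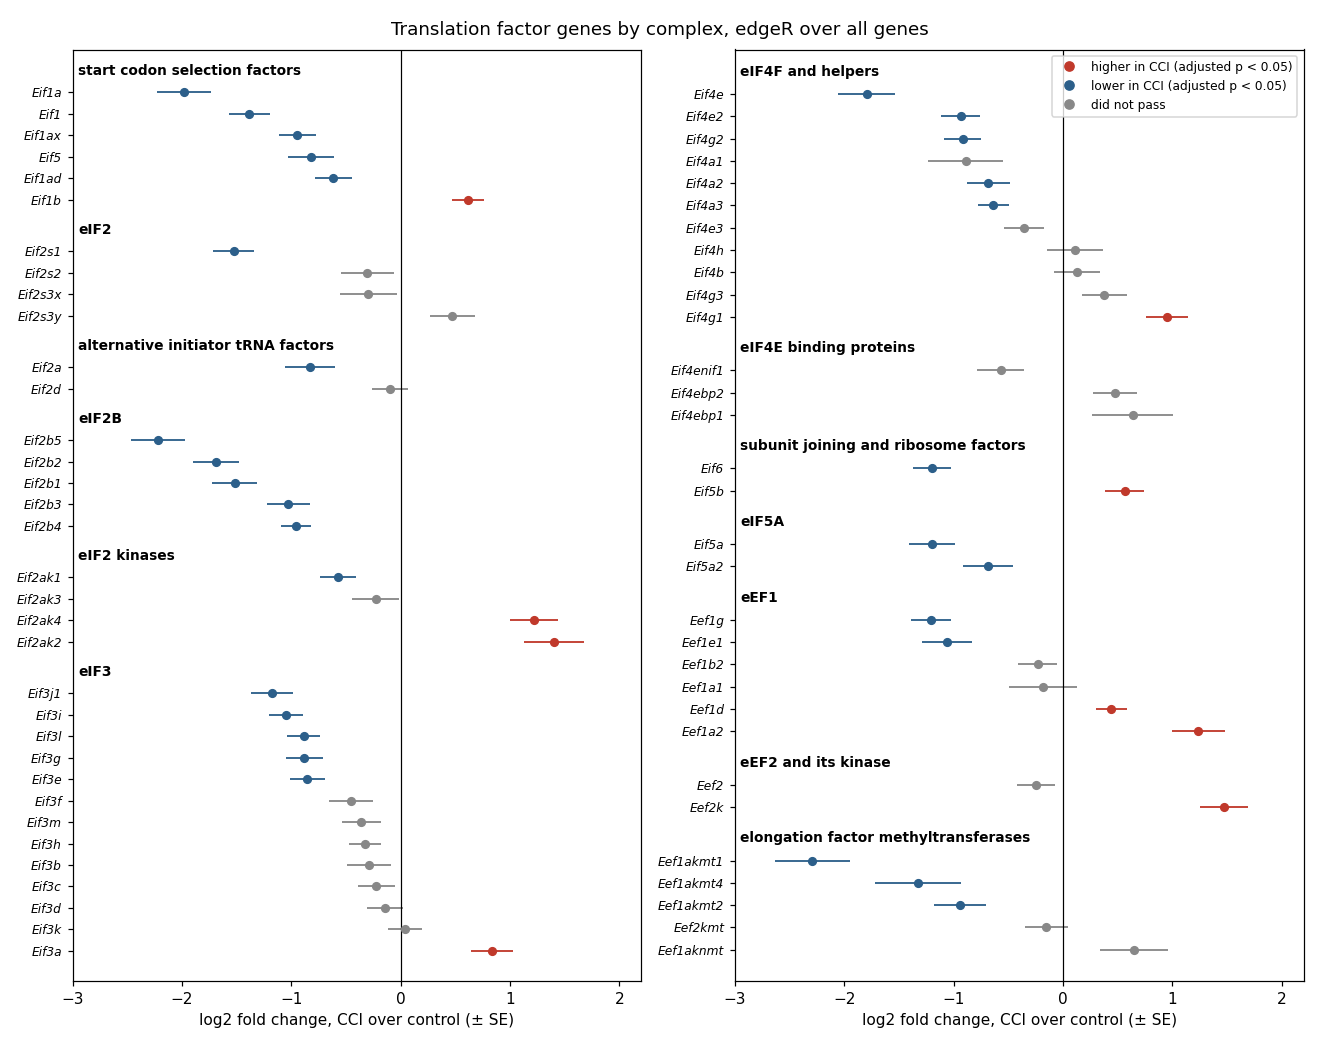
Log2 fold change of CCI over control for the 65 tested factor genes, grouped by complex, from edgeR with TMM scaling. Bars are the approximate standard error worked back from the F statistic. Colour marks the call at an adjusted p of 0.05. All 5 eIF2B genes lie left of 0, the kinases lie on both sides, and Eif1b, Eif3a, Eif4g1, Eif5b, Eef1a2, Eef1d and Eef2k are called higher. With TMM scaling 31 genes are called lower, against 12 on log2(FPKM + 1).

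The balance of calls depended on the scaling. On the authors' deposited FPKM, as log2(FPKM + 1), with no correction for library composition, the median gene's log2 fold change was 0.51 above its TMM value. There 18 factor genes were higher and 12 lower, beside 47.6% and 9.64% of all tested genes, and with a pseudocount of 0.1 the factor gene counts were again 18 and 12 (46.5% and 9.43% of all genes). All 9 genes that rose with TMM were among the 18, and 12 of the 31 that fell were the 12. Abundant genes were more often lower than higher in CCI. Of 7637 tested genes with a mean of at least 20 CPM, 20.6% were higher and 39.7% lower. Of the 54 factor genes above that level 6 were higher and 30 lower. The counts by complex below are to be read beside these shares and those of all tested genes. Gene length here and below is the deposited value, which can be shorter than the genomic span. Its definition is not given in the sources used here. A smooth trend on gene length alone, taken out of each library, left 6 factor genes higher and 31 lower (21.3% and 27.0% of all genes). With mean expression also taken out, 17 were higher and 16 lower (18.2% and 19.1% of all genes). Without control replicate 5, 12 were higher and 37 lower (31.5% and 30.5% of all genes). In all 15 alternatives, among them the removal of each library in turn, 6 of the 9 higher genes were called in the same direction: Eef1a2, Eef2k, Eif1b, Eif2ak2, Eif2ak4 and Eif4g1. The same held for 8 of the 31 lower genes: Eef1akmt1, Eif1a, Eif2b1, Eif2b2, Eif2b5, Eif2s1, Eif3j1 and Eif4e.

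**Figure D2:**
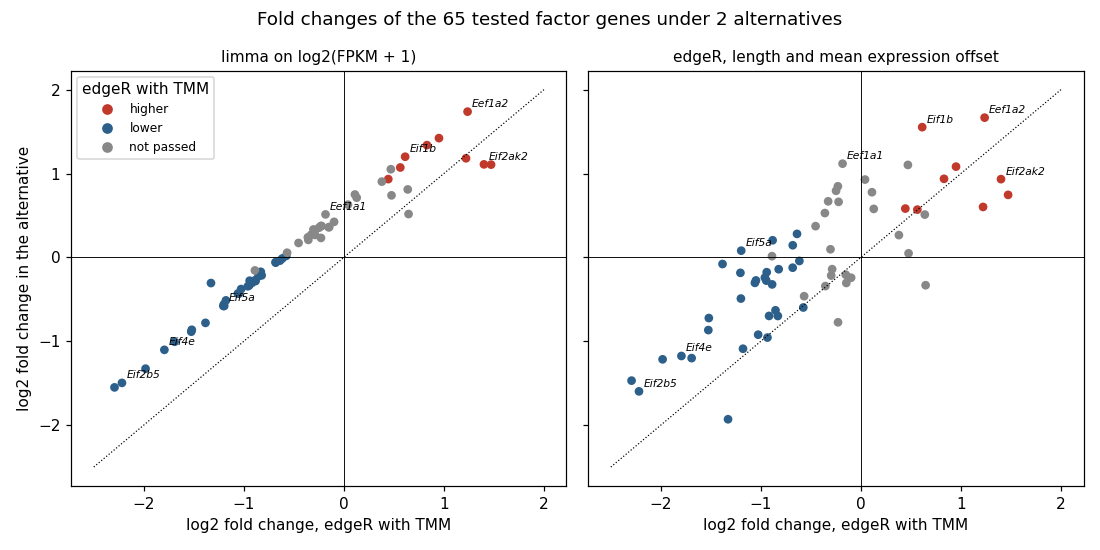
Log2 fold changes of the 65 tested factor genes with TMM scaling (horizontal) against limma on log2(FPKM + 1) (vertical, left) and against edgeR with trends on gene length and mean expression taken out (vertical, right). Colour gives the call with TMM and the dotted line marks equal values. On the FPKM scale nearly the whole cloud sits above the line: Eef1a1 moves from -0.18 to 0.51, whereas Eif2b5 and Eif4e stay below 0 and Eef1a2 and Eif2ak2 above 0 in both panels.

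The exchange factor eIF2B is built from 5 different subunits, and all 5 genes were lower in CCI, with no overlap between the groups. Eif2b5 (ENSMUSG00000003235, GRCm39 chromosome 16, 20317567 to 20328073, plus strand) encodes the catalytic epsilon subunit. It was at 20.8, 23.8 and 26.4 CPM in CCI and 123, 72.7 and 135 CPM in control. Its mean level fell from 110.3 ± 33.1 CPM to 23.7 ± 2.79 CPM (SD, n = 3), a 4.65-fold drop (log2 fold change -2.22 ± 0.25, edgeR adjusted p = 0.000291). Control replicate 5 was the lowest control, and without it the log2 fold change was -2.47. The gene of the beta subunit, Eif2b2 (ENSMUSG00000004788, GRCm39 chromosome 12, 85266255 to 85273402, plus strand), was at 18.1, 19.9 and 19.6 CPM in CCI and 51.5, 81.8 and 53.5 CPM in control (log2 fold change -1.69 ± 0.21, edgeR adjusted p = 0.000457). Here control replicate 5 was instead the highest library. The alpha subunit gene Eif2b1 (ENSMUSG00000029388, GRCm39 chromosome 5, 124708276 to 124717194, minus strand) was at 45.2, 52.6 and 46.0 CPM in CCI and 113, 180.3 and 119 CPM in control (log2 fold change -1.52 ± 0.21, edgeR adjusted p = 0.000678). The gamma and delta subunit genes, both named after their values were seen, had smaller changes. Eif2b3 (gamma) was at 40.2, 42.7 and 30.4 CPM in CCI and 64.3, 92.3 and 74.2 CPM in control (log2 fold change -1.03 ± 0.20, edgeR adjusted p = 0.00304), and Eif2b4 (delta) at 45.5, 47.0 and 46.8 CPM in CCI and 86.1, 88.9 and 95.9 CPM in control (log2 fold change -0.96 ± 0.14, edgeR adjusted p = 0.000796). Per kilobase of gene length, the levels in control ran from 11.8 CPM per kb (Eif2b3) to 53.3 CPM per kb (Eif2b1). In CCI they ran from 5.79 (Eif2b3) to 18.6 CPM per kb (Eif2b1), and Eif2b5 went from 42.5 to 9.13 CPM per kb. Each of the 5 had a negative log2 fold change under every scaling tried. On log2(FPKM + 1), however, Eif2b3 (-0.38) and Eif2b4 (-0.34) did not pass, nor did Eif2b4 with length and mean expression taken out (-0.24). Eif2b4 overlaps Snx17 on the opposite strand, and no strand setting of the counting is given in the sources used here.

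**Figure D3:**
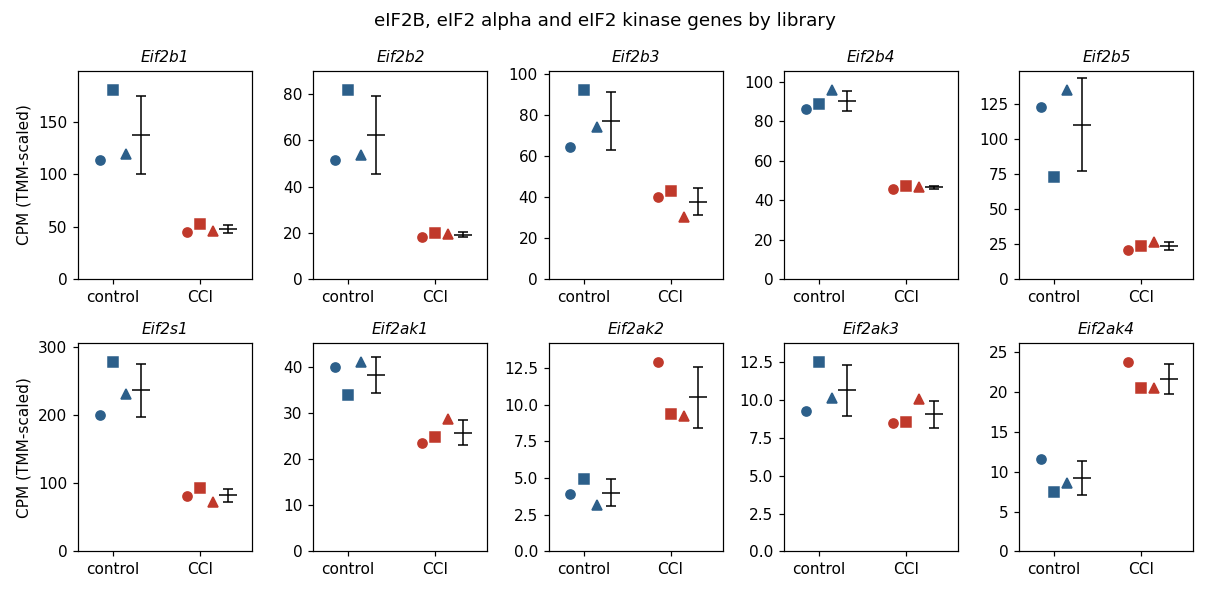
Level of each eIF2B subunit gene, of Eif2s1 and of the 4 eIF2 kinase genes in each library (vertical, CPM; circle, square and triangle are replicates 4, 5 and 6 in control and 1, 2 and 3 in CCI), with the mean and SD of 3 libraries as a bar. The 5 eIF2B genes and Eif2s1 have all CCI libraries below all controls, Eif2ak2 and Eif2ak4 all above, and Eif2ak3 overlaps.

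The substrate of eIF2B, eIF2, showed no common change of its subunit genes. Eif2s1 (ENSMUSG00000021116, GRCm39 chromosome 12, 78908593 to 78933784, plus strand) encodes the alpha subunit that the stress kinases phosphorylate. It stood at 80.8, 92.6 and 73.0 CPM in CCI and 200.2, 278 and 231 CPM in control, a 2.88-fold drop (log2 fold change -1.53 ± 0.19, edgeR adjusted p = 0.000431). All 3 CCI libraries were below all controls. Eif2s2 (beta) was at 117, 114 and 122 CPM in CCI and 107, 204 and 125 CPM in control. Its groups overlapped, control replicate 5 being far above the rest, and it did not pass (log2 fold change -0.30 ± 0.24, edgeR adjusted p = 0.31). The gamma subunit has an X-linked and a Y-linked gene in mice. Eif2s3x was at 22.1, 21.8 and 16.1 CPM in CCI and 34.3, 18.6 and 20.8 CPM in control and did not pass (log2 fold change -0.30 ± 0.26, edgeR adjusted p = 0.364). Eif2s3y was at 105, 101 and 112 CPM in CCI and 59.9, 100.1 and 69.6 CPM in control, with all CCI libraries just above control replicate 5 and well above the other controls (log2 fold change 0.47 ± 0.20, edgeR adjusted p = 0.0832). It did not pass, except on the FPKM scales, with length and mean expression taken out, with the stricter filter and without control replicate 5 (0.68). Both gamma genes had reads in all 6 libraries, and the ratio of Eif2s3y to Eif2s3x counts was 4.73, 4.61 and 6.97 in CCI and 1.75, 5.39 and 3.35 in control, overlapping between groups. Of the alternative initiator tRNA factor genes, Eif2a fell (log2 fold change -0.83 ± 0.23, edgeR adjusted p = 0.0149), a call lost without CCI replicate 2 (-0.80) or 3 (-0.78) and on log2(FPKM + 1) (-0.17). It overlaps Serp1 on the opposite strand. Eif2d did not pass (log2 fold change -0.10 ± 0.16, edgeR adjusted p = 0.637).

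The 4 eIF2 kinases, each of which responds to a different stress, did not move together: 2 rose, 1 fell and 1 did not pass. Eif2ak2 (ENSMUSG00000024079, GRCm39 chromosome 17, 79159993 to 79190002, minus strand) encodes PKR, which senses double-stranded RNA and is itself interferon-inducible. Its level was 12.9, 9.40 and 9.25 CPM in CCI and 3.93, 4.96 and 3.14 CPM in control, a 2.64-fold rise (log2 fold change 1.40 ± 0.27, edgeR adjusted p = 0.00307). Eif2ak4 (ENSMUSG00000005102, GRCm39 chromosome 2, 118219099 to 118305715, plus strand) encodes GCN2, the sensor of amino acid shortage, and was at 23.7, 20.4 and 20.5 CPM in CCI and 11.6, 7.45 and 8.60 CPM in control, a 2.33-fold rise (log2 fold change 1.22 ± 0.22, edgeR adjusted p = 0.00214). For both, every CCI library was above every control. The haem-regulated kinase gene Eif2ak1 was at 23.5, 24.8 and 28.7 CPM in CCI and 40.1, 33.8 and 41.1 CPM in control and fell (log2 fold change -0.58 ± 0.17, edgeR adjusted p = 0.0186). That call was lost on removal of CCI replicate 1 (-0.52) or 2 (-0.55) or of control replicate 6 (-0.53), and the sign turned on log2(FPKM + 1) (0.02). It overlaps Ankrd61 and Aimp2 on the opposite strand. The PERK gene Eif2ak3, whose product senses unfolded protein in the endoplasmic reticulum, was at 8.52, 8.58 and 10.1 CPM in CCI and 9.28, 12.5 and 10.2 CPM in control, with overlapping groups (log2 fold change -0.23 ± 0.22, edgeR adjusted p = 0.396). With length and mean expression taken out it was called lower (-0.77), which made the kinases 2 higher and 2 lower. The kinases are scarce transcripts beside their substrate: in control the levels ran from 0.784 (Eif2ak2) to 6.76 CPM per kb (Eif2ak1), against 47.7 CPM per kb for Eif2s1.

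Promoter sequences came from RefSeq (GRCm38.p6, 250 bases before to 50 after each gene's start), whose table held 54 of the 87 factor genes. Windows of 100 bases follow for some called genes in which a searched motif matched, chosen after the values were seen. That of Eif2ak2 (chr17:78882543-78882642, minus strand, GRCm38.p6) is shown because it holds the core letters of an interferon-stimulated response element, in capitals, at bases 19 to 28, the first base of the transcript being base 1:
Eif2ak2: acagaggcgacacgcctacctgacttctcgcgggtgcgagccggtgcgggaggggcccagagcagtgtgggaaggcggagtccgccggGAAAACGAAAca
Those of Eif2b2 (chr12:85219411-85219510, plus strand) and Eif2b4 (chr5:31193110-31193209, minus strand) are shown because 2 of the 4 eIF2B genes in the table hold the ETS-family core CCGGAAG, in capitals, at bases 17 to 23 and 2 to 8:
Eif2b2: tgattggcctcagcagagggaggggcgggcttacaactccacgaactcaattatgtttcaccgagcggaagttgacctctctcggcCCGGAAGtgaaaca
Eif2b4: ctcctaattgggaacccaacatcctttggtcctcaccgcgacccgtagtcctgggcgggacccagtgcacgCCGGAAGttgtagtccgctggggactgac
Those of Eif1b (chr9:120492535-120492634, plus strand), Eif3a (chr19:60790664-60790763, minus strand), Eif4g1 (chr16:20672657-20672756, plus strand) and Eef2k (chr7:120842753-120842852, plus strand) are the 4 genes called higher with the E-box CACGTG, in capitals, which Eif4g1 holds near both ends of the window (for Eef2k, which has several listed starts, the start with the match is shown):
Eif1b: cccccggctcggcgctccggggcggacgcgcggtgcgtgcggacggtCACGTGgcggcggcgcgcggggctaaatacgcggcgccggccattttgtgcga
Eif3a: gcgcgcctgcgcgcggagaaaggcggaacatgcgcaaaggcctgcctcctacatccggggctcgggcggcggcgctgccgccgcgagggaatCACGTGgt
Eif4g1: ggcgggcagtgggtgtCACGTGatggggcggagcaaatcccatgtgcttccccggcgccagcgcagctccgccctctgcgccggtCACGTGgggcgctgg
Eef2k: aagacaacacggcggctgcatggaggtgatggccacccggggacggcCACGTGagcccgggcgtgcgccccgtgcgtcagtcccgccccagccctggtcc
Motifs were searched on both strands of the whole RefSeq stretch, and a gene with several starts counted once. CACGTG was in 14 of the 54 factor genes (25.9%) and in 8.09% of all 27025 genes of the table. CCGGAAG was in 17 (31.5%) and in 9.93% of all. The 27025 were not limited to the 14259 genes tested here, and the motif shares among tested genes were not counted. By call, CACGTG was in 4 of 8 genes that rose, 4 of 23 that fell and 6 of 22 that did not pass, and CCGGAAG in 1, 10 and 6 of them. The interferon-stimulated response element core was in 4 factor genes (7.41%; 3.99% of all), and the ATF4 core TGATGNAA in 2 (3.70%; 4.51%). The 6 others were TATAAA in 5 (9.26%; 15.7%), CCAAT in 19 (35.2%; 41.1%), TGACGTCA in 1 (1.85%; 2.03%), GCATGCGC in 5 (9.26%; 3.05%), AAGATGGCG in 3 (5.56%; 1.64%) and GGGGCGGGG in 8 (14.8%; 12.9%). CCAAT was in none of the 8 that rose, 12 of the 23 that fell and 6 of the 22 that did not pass. Matches of different motifs may overlap, and they are letter matches with no measurement of binding.

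Of the 6 genes grouped here as start codon selection factors, 5 fell and 1 rose (2 lower and 1 higher on log2(FPKM + 1), 1 lower and 1 higher with length and mean expression taken out). The 6 include Eif1ad, whose part in start codon choice was not tested. Eif1 (ENSMUSG00000035530, GRCm39 chromosome 11, 100210711 to 100212922, plus strand), whose product guards against initiation at the wrong codon, was at 338, 345 and 379 CPM in CCI and 889, 952 and 930.0 CPM in control, a 2.61-fold drop (log2 fold change -1.38 ± 0.19, edgeR adjusted p = 0.000607). Its close copy Eif1b (ENSMUSG00000006941, GRCm39 chromosome 9, 120321298 to 120324396, plus strand) went the other way, at 144, 165 and 155 CPM in CCI and 98.5, 101 and 104 CPM in control, a 1.53-fold rise (log2 fold change 0.61 ± 0.15, edgeR adjusted p = 0.00787). Within a library the ratio of Eif1b to Eif1 counts, which no library scaling can change, was 0.427, 0.478 and 0.409 in CCI and 0.111, 0.106 and 0.112 in control. The controls lay within a narrow range and every CCI library was more than 3 times above them. The log2 difference was 1.995 ± 0.07 (SE), with an exact two-sided permutation p of 0.1, the smallest that 3 against 3 libraries allow (0.138 adjusted over the 11 ratios tested). With mean expression taken out, Eif1 itself was at -0.08 and did not pass, and Eif1b was at 1.55. The eIF1A genes both fell. Eif1a was at 76.5, 79.7 and 53.5 CPM in CCI and 220.0, 362 and 247 CPM in control (log2 fold change -1.98 ± 0.25, edgeR adjusted p = 0.000476). Eif1ax was at 129, 136 and 113 CPM in CCI and 257, 212 and 261 CPM in control (log2 fold change -0.95 ± 0.17, edgeR adjusted p = 0.00221). Both had CCI below control in all libraries, but Eif1ax did not pass on log2(FPKM + 1) (-0.33) or with length and mean expression taken out (-0.28). Eif5, the GTPase-activating factor of eIF2, also fell (log2 fold change -0.82 ± 0.21, edgeR adjusted p = 0.0112), as did Eif1ad (log2 fold change -0.61 ± 0.17, edgeR adjusted p = 0.0148). The Eif1ad call was lost without CCI replicate 1 (-0.54) or 2 (-0.62), and on log2(FPKM + 1) neither passed (-0.21 and -0.01). Both were named after their values were seen.

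The genes of eIF3, the largest initiation complex, were split: of 13 tested, 5 fell, 1 rose and 7 did not pass. The 38.5% that fell stand beside 39.7% of all tested genes with a mean of at least 20 CPM. The balance turned with length and mean expression taken out, where 2 were lower and 5 higher, and on log2(FPKM + 1) it was 2 and 2. Eif3j1 (a loosely bound subunit) was at 22.2, 30.5 and 31.5 CPM in CCI and 55.1, 74.1 and 61.8 CPM in control (log2 fold change -1.18 ± 0.19, edgeR adjusted p = 0.00147). Eif3i was at 79.0, 81.9 and 71.0 CPM in CCI and 144, 175 and 161 CPM in control (log2 fold change -1.05 ± 0.16, edgeR adjusted p = 0.000927). Eif3l fell in the same range (log2 fold change -0.89 ± 0.15, edgeR adjusted p = 0.00177), and Eif3g and Eif3e had log2 fold changes of -0.88 and -0.85. In each of these 5 genes all CCI libraries were below all controls, and on log2(FPKM + 1) Eif3l, Eif3g and Eif3e did not pass (-0.27, -0.28 and -0.23). With length and mean expression taken out Eif3i (-0.28), Eif3l (-0.32) and Eif3g (0.20) did not pass. Eif3a, the gene of the largest subunit, was at 139, 139.9 and 136 CPM in CCI and 65.4, 99.5 and 68.1 CPM in control, all CCI libraries being above all controls (log2 fold change 0.83 ± 0.19, edgeR adjusted p = 0.00697). Eif3a, Eif3e, Eif3g and the subunits that follow were named after their values were seen. The Eif3a call was lost when the length trend alone was taken out (0.40). Eif3b (-0.29 ± 0.20), Eif3c (-0.22 ± 0.17), Eif3d (-0.15 ± 0.16), Eif3f (-0.45 ± 0.20), Eif3h (-0.33 ± 0.15), Eif3k (0.04 ± 0.16) and Eif3m (-0.36 ± 0.18) did not pass. The median over the 13 was -0.36, turned to 0.24 on log2(FPKM + 1) and was 0.20 with length and mean expression taken out. Without control replicate 5, 8 of the 13 were lower and 1 higher. Eif3j1 overlaps Spg11 on the opposite strand, and its copy Eif3j2 had 4 to 15 reads per library.

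In the cap-binding group, 5 of 11 tested genes fell, 1 rose and 5 did not pass. The 45.5% that fell stand beside 39.7% of all tested genes with a mean of at least 20 CPM. On log2(FPKM + 1) 1 was lower and 3 higher, and with length and mean expression taken out 3 were lower and 1 higher. Eif4e (ENSMUSG00000028156, GRCm39 chromosome 3, 138231940 to 138265457, plus strand), which binds the cap and limits initiation, was at 106, 117 and 103 CPM in CCI and 304, 539 and 291 CPM in control, a 3.47-fold drop (log2 fold change -1.79 ± 0.26, edgeR adjusted p = 0.000855). All CCI libraries were below all controls, of which replicate 5 was the highest, and without it the log2 fold change was -1.47. The related cap-binding gene Eif4e2 also fell (log2 fold change -0.93 ± 0.18, edgeR adjusted p = 0.00297), and Eif4e3 did not pass (log2 fold change -0.36 ± 0.18, edgeR adjusted p = 0.135). The count ratio of Eif4e3 to Eif4e was 0.114, 0.110 and 0.110 in CCI and 0.0459, 0.0294 and 0.0573 in control. That of Eif4e2 to Eif4e was 0.358, 0.373 and 0.309 in CCI and 0.202, 0.147 and 0.265 in control. Neither overlapped between the groups (exact permutation p = 0.1 each). Eif4e2 itself did not pass on log2(FPKM + 1) (-0.29).

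The scaffold genes moved in opposite directions. Eif4g1 (ENSMUSG00000045983, GRCm39 chromosome 16, 20487063 to 20511634, plus strand), the main scaffold that joins the cap to the ribosome, was at 99.5, 99.9 and 109 CPM in CCI and 64.4, 39.6 and 55.5 CPM in control and rose 1.93-fold (log2 fold change 0.95 ± 0.20, edgeR adjusted p = 0.00407). Eif4g2, whose product lacks the part that binds eIF4E and serves cap-independent initiation, was at 198, 191 and 199 CPM in CCI and 389, 388 and 333 CPM in control and fell (log2 fold change -0.92 ± 0.17, edgeR adjusted p = 0.00223). It did not pass on log2(FPKM + 1) (-0.30). The ratio of Eif4g2 to Eif4g1 counts was 1.99, 1.91 and 1.82 in CCI and 6.04, 9.81 and 6.01 in control, a difference of -1.89 ± 0.24 (log2, SE; exact permutation p = 0.1). The third scaffold gene, Eif4g3, was at 109, 107 and 121 CPM in CCI and 72.8, 113 and 73.3 CPM in control and did not pass (log2 fold change 0.38 ± 0.20, edgeR adjusted p = 0.143), except on the FPKM scales and without control replicate 5 (0.60). Among the helicases, Eif4a2 fell (log2 fold change -0.68 ± 0.19, edgeR adjusted p = 0.0174) and so did Eif4a3 (-0.64 ± 0.14), the helicase of the exon junction complex, named after its values were seen. The Eif4a2 call was lost on removal of any CCI library (-0.70, -0.68 and -0.68 without replicates 1, 2 and 3), and on log2(FPKM + 1) neither passed (-0.06 and -0.04). Eif4a2 overlaps Rfc4 on the opposite strand. Eif4a1 was at 171, 171 and 197 CPM in CCI and 214, 546 and 238 CPM in control. All CCI libraries were below all controls, but replicate 5 was more than 2 times the other controls and the gene did not pass (log2 fold change -0.89 ± 0.34, edgeR adjusted p = 0.0552). It passed with DESeq2, with no filter and on removal of any control library (-1.16, -0.36 and -1.09 without control 4, 5 and 6). The helicase cofactor genes Eif4b (0.13 ± 0.21) and Eif4h (0.11 ± 0.25) did not pass, but Eif4b was higher past the threshold on log2(FPKM + 1) (0.71) and without control replicate 5 (0.37).

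None of the 3 tested eIF4E inhibitor genes passed. Eif4ebp1, an ATF4 target whose product blocks eIF4E when mTORC1 is low, was at 4.51, 4.84 and 9.55 CPM in CCI and 5.09, 2.84 and 4.19 CPM in control, CCI replicate 3 being the highest by far (log2 fold change 0.64 ± 0.37, edgeR adjusted p = 0.175). Eif4ebp2, the main brain form, was at 15.0, 13.7 and 19.0 CPM in CCI and 12.5, 10.6 and 11.1 CPM in control, all CCI above all control (log2 fold change 0.48 ± 0.20, edgeR adjusted p = 0.0785). Eif4enif1, the eIF4E transporter gene, narrowly missed the threshold (log2 fold change -0.57 ± 0.21, edgeR adjusted p = 0.0513). It passed as lower in 7 of the 15 alternatives, namely both DESeq2 fits, no filter, the length offset (-0.84) and removal of any control library (-0.71, -0.33 and -0.70 without control 4, 5 and 6). Both Eif4ebp genes passed as higher on log2(FPKM + 1) (0.81 and 0.74).

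Of the late-acting factors 1 gene rose and 3 fell. Eif5b, the GTPase that joins the subunits, was at 132, 113 and 127 CPM in CCI and 73.6, 103 and 75.9 CPM in control and rose (log2 fold change 0.56 ± 0.18, edgeR adjusted p = 0.0272). The call was lost on removal of any library except CCI replicate 2 and control replicate 5 (0.51, 0.54, 0.44 and 0.49 without CCI 1, CCI 3, control 4 and control 6) and with the length trend taken out (0.07). It overlaps Rev1 on the opposite strand. Eif6, which keeps the large subunit apart, fell from 99.3 ± 18.9 to 43.2 ± 1.37 CPM (SD, n = 3; log2 fold change -1.20 ± 0.17, edgeR adjusted p = 0.000833). With length and mean expression taken out it did not pass (-0.49). Eif5a, the hypusine-bearing factor that relieves stalled ribosomes, was at 412, 436 and 425 CPM in CCI and 971, 805 and 1141 CPM in control, every CCI library below every control (log2 fold change -1.20 ± 0.21, edgeR adjusted p = 0.00196). On log2(FPKM + 1) it did not pass (-0.58), and with mean expression taken out its sign turned (0.08). Its copy Eif5a2 also fell (log2 fold change -0.68 ± 0.23, edgeR adjusted p = 0.0335), with overlapping groups. Its call likewise needed CCI 1, CCI 3, control 4 and control 6 (-0.69, -0.57, -0.63 and -0.57 without each), and it was lost with the stricter filter and on log2(FPKM + 1) (-0.06). The ratio of Eif5a2 to Eif5a counts was 0.204, 0.223 and 0.166 in CCI and 0.158, 0.117 and 0.137 in control.

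In elongation, 2 of the 6 genes grouped here as eEF1 rose and 2 fell. Of all tested genes 27.0% were higher and 25.3% lower. The 6 include Eef1e1, which fell and, as said below, encodes no subunit of eEF1. The tally was 3 higher and 1 lower on log2(FPKM + 1), and 4 higher and none lower with length and mean expression taken out. The aminoacyl-tRNA carrier eEF1A has a general gene, Eef1a1, and a gene used in mature neurons and muscle, Eef1a2. Eef1a2 (ENSMUSG00000016349, GRCm39 chromosome 2, 180789446 to 180798807, minus strand) was at 48.2, 58.8 and 41.1 CPM in CCI and 25.1, 14.2 and 23.3 CPM in control, a 2.36-fold rise with no overlap (log2 fold change 1.24 ± 0.24, edgeR adjusted p = 0.00332). Eef1a1 was at 443, 465 and 474 CPM in CCI and 368, 811 and 391 CPM in control. Control replicate 5 was far above every other library, and the gene did not pass (log2 fold change -0.18 ± 0.31, edgeR adjusted p = 0.639). Without that replicate its log2 fold change was 0.26, and it still did not pass, whereas with length and mean expression taken out it was called higher (1.12). Per kilobase, Eef1a2 went from 10.01 in control to 23.7 CPM per kb in CCI, well under Eef1a1 with 209.9 and 185. The count ratio of Eef1a2 to Eef1a1 was 0.109, 0.126 and 0.0868 in CCI and 0.0682, 0.0175 and 0.0597 in control, each CCI library being above each control. The log2 difference was 1.36 ± 0.64 (SE, exact permutation p = 0.1), and without control replicate 5 it was 0.73. Of the 10 neuronal markers 2 rose and 3 fell, as given above.

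The exchange factor subunits of eEF1A differed. Eef1g fell from 246 ± 46.3 to 107 ± 3.17 CPM (SD, n = 3; log2 fold change -1.20 ± 0.18, edgeR adjusted p = 0.000984), a call lost with length and mean expression taken out (-0.18). Eef1b2 did not pass (-0.23 ± 0.18), but was called higher on log2(FPKM + 1) (0.37) and with length and mean expression taken out (0.85). Eef1d was at 64.3, 71.5 and 63.9 CPM in CCI and 49.9, 48.1 and 48.8 CPM in control and rose (log2 fold change 0.44 ± 0.14, edgeR adjusted p = 0.0255). These values of Eef1b2 and Eef1d were seen before the genes were named. The Eef1d call was lost on removal of any library except control replicate 5 (0.46, 0.39, 0.47, 0.42 and 0.43 without CCI 1, 2 and 3 and control 4 and 6), with no filter and with the length trend taken out (0.17). Eef1d overlaps Naprt on the same strand. Eef1e1, which despite its name encodes a scaffold of the tRNA synthetase complex, fell (log2 fold change -1.06 ± 0.23, edgeR adjusted p = 0.00485). Its call was lost on log2(FPKM + 1) (-0.43) and with length and mean expression taken out (-0.30).

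The translocase and its kinase differed. Eef2k (ENSMUSG00000035064, GRCm39 chromosome 7, 120442054 to 120506673, plus strand), whose product phosphorylates and halts eEF2, was at 16.8, 14.1 and 12.4 CPM in CCI and 5.62, 4.85 and 5.09 CPM in control, a 2.77-fold rise (log2 fold change 1.47 ± 0.22, edgeR adjusted p = 0.000959), the highest of the 65 with TMM scaling. Eef2 was at 228, 252 and 233 CPM in CCI and 307, 243 and 298 CPM in control, with overlapping groups, and did not pass (log2 fold change -0.25 ± 0.17, edgeR adjusted p = 0.251). Without control replicate 5 Eef2 passed as lower (-0.37), and with length and mean expression taken out as higher (0.79). The ratio of Eef2k to Eef2 counts was 0.0737, 0.0557 and 0.0532 in CCI and 0.0183, 0.0199 and 0.0171 in control, a difference of 1.71 ± 0.16 (log2, SE; exact permutation p = 0.1) with no overlap.

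**Figure D4:**
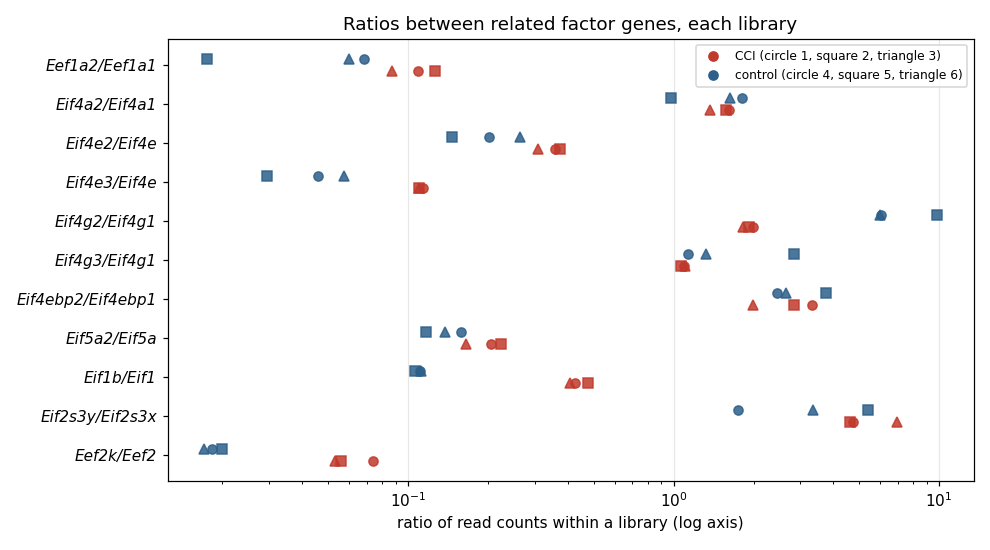
Ratio of read counts within each library (horizontal, log axis) for 11 gene pairs (vertical), red for CCI and blue for control with symbols by replicate. The Eif1b to Eif1, Eif4g2 to Eif4g1 and Eef2k to Eef2 ratios leave a wide gap between the groups, and Eif4a2 to Eif4a1, Eif4ebp2 to Eif4ebp1 and Eif2s3y to Eif2s3x overlap.

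Of 5 genes of enzymes that methylate elongation factors 3 fell. Eef1akmt1 (ENSMUSG00000021951, GRCm39 chromosome 14, 57787054 to 57809069, minus strand), a lysine methyltransferase of eEF1A, was at 30.9, 34.4 and 37.2 CPM in CCI and 103, 270.0 and 129.9 CPM in control. Replicate 5 widens the control spread, and every CCI library was below every control (log2 fold change -2.29 ± 0.34, edgeR adjusted p = 0.000954). Without replicate 5 the log2 fold change was -1.79. Eef1akmt2 fell by a smaller amount (log2 fold change -0.94 ± 0.24, edgeR adjusted p = 0.0106) and overlaps Fgfr2 on the same strand. Eef1akmt4, a gene of few reads that overlaps Alg3 and Gm49333, fell as well (log2 fold change -1.33 ± 0.39, edgeR adjusted p = 0.0208). Its call was lost on removal of CCI 1, CCI 2 or control 4 (-1.27, -1.21 and -1.21), and on log2(FPKM + 1) neither passed (-0.28 and -0.31). Eef1aknmt (0.65 ± 0.31) and Eef2kmt (-0.15 ± 0.20) did not pass, but Eef1aknmt was called higher on log2(FPKM + 1) (0.52) and without control replicate 4 (0.99).

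The paired ratios, 11 in all, separated the 3 CCI from the 3 control libraries in 8 cases, each with an exact permutation p of 0.1 (two-sided, 0.138 adjusted over the 11), so that none could pass 0.05 in this design. Separation was common in these libraries. Among all tested single genes on TMM-scaled CPM, CCI lay wholly above control in 33.6% and wholly below in 29.4%. Ratios of other gene pairs were not counted, so the 8 are not shown to be more than such pairs would give. The 3 that overlapped were Eif4a2 to Eif4a1 (1.61, 1.57 and 1.37 in CCI and 1.80, 0.975 and 1.63 in control), Eif4ebp2 to Eif4ebp1 (3.33, 2.83 and 1.98 in CCI and 2.46, 3.75 and 2.66 in control) and Eif2s3y to Eif2s3x. In Eif4g3 to Eif4g1 the separation was small apart from control replicate 5 (1.09, 1.07 and 1.11 in CCI and 1.13, 2.85 and 1.32 in control), and without that library the difference was -0.17 in place of -0.57. How reads that match several copies were counted is not given in the sources used here, so levels of genes with near-identical copies (Eef1a1, Eif1, Eif5a, Eif4a1, and Eif2s3x with Eif2s3y) are uncertain to that extent.

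Log2 fold changes were higher in longer genes and lower in more abundant ones, among the factor genes and over all genes. Across the 65 genes Pearson r between log2 length and log2 fold change was 0.33 (Spearman 0.32), and 0.25 (Spearman 0.28) across all 14259. With log2 mean CPM it was -0.37 (Spearman -0.33) and -0.45 (Spearman -0.44). Genes are not independent replicates and share these libraries. The 9 genes that rose had a median length of 7301 bp, and the 31 that fell of 3639 bp. By the deposited length, Eif1b (1125 bp) and Eef1a2 (2084 bp) rose although short, and Eif4e (6008 bp) and Eif4g2 (10166 bp) fell although long.

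Other genes of translational control were counted from 5 lists by role. Beside the counts of all 5, 27.0% of all tested genes were called higher and 25.3% lower. In the integrated stress response list, whose genes act downstream of eIF2 phosphorylation, 3 of 12 tested genes rose, 2 fell and 7 did not pass (median 0.25). Atf4, the central transcription factor gene, was at 77.2, 79.3 and 78.7 CPM in CCI and 70.0, 56.7 and 69.1 CPM in control and did not pass (log2 fold change 0.26 ± 0.15, edgeR adjusted p = 0.164), except on the FPKM scales and with length trends taken out, where it was higher. The leucine sensor gene Sesn2 was at 10.6, 15.1 and 13.6 CPM in CCI and 3.93, 1.77 and 5.09 CPM in control (log2 fold change 1.83 ± 0.35, edgeR adjusted p = 0.00303). Atf5 was at 5.51, 5.11 and 6.16 CPM in CCI and 1.25, 1.89 and 2.47 CPM in control (log2 fold change 1.57 ± 0.32, edgeR adjusted p = 0.00402). Both were higher in every CCI library than in any control. Asns, the asparagine synthetase gene and a known ATF4 target, went down instead, at 74.2, 93.8 and 67.2 CPM in CCI and 264, 355 and 289.5 CPM in control (log2 fold change -1.95 ± 0.20, edgeR adjusted p = 0.000247). In the mTORC1 list 4 of 14 rose and 3 fell (median 0.28). Of the called genes not described next, Tsc2 (0.45 ± 0.14), Rps6kb1 (0.49 ± 0.15) and Rps6kb2 (1.13 ± 0.33) rose. Pdcd4 fell (-1.73 ± 0.50), with control replicate 5 far above the other libraries. These were named after their values were seen. Tsc1, an inhibitor of the pathway, rose from 32.4 ± 5.45 to 86.7 ± 15.6 CPM (SD, n = 3; log2 fold change 1.42 ± 0.20, edgeR adjusted p = 0.000686). Rheb, the activator, fell from 954 ± 264 to 305 ± 15.7 CPM (log2 fold change -1.65 ± 0.24, edgeR adjusted p = 0.000902). Deptor, which binds and inhibits mTOR, fell (log2 fold change -0.71 ± 0.20, edgeR adjusted p = 0.0162), a call lost on removal of CCI 1, CCI 3 or control 6 (-0.68, -0.57 and -0.64).

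No member of the other 3 lists rose. Of 7 termination and recycling genes 4 fell. Among them were the ribosome rescue gene Hbs1l (log2 fold change -1.70 ± 0.18, edgeR adjusted p = 0.000245), the recycling ATPase gene Abce1 (log2 fold change -1.21 ± 0.16, edgeR adjusted p = 0.000520) and the release factor gene Etf1 (-0.999 ± 0.18). Of 5 genes that bind or regulate poly(A)-binding protein 3 fell. Paip1, a stimulator of initiation, was at 246, 258 and 258 CPM in CCI and 817, 2552 and 855 CPM in control, control replicate 5 being far above the rest (log2 fold change -2.47 ± 0.45, edgeR adjusted p = 0.00225), and without that library the log2 fold change was -1.74. The inhibitor genes Paip2 (-1.24 ± 0.25) and Paip2b (-1.01 ± 0.15) fell as well, the Paip2 call being lost with length and mean expression taken out (-0.027), while Pabpc1 did not pass (-0.05 ± 0.20). Of 8 genes of the enzymes that place hypusine on eIF5A or diphthamide on eEF2, 5 fell, including Dhps (-0.98 ± 0.21), Dph3 (-0.71 ± 0.15) and Dph6 (-0.85 ± 0.16). On log2(FPKM + 1) Dhps, Dph3, Dph6, Etf1, Paip2b and Deptor did not pass, and with length and mean expression taken out Dhps, Dph3 and Etf1 did not.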

How the data were processed

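Bulk RNA sequencing libraries of the paraventricular thalamus, 3 from CCI mice and 3 from untreated mice, were analysed from a gene table. The read counts per gene were deposited by the authors as whole numbers, 1 column per library per the file headers. The FPKM values are the authors' own, also per the file headers. FPKM stands for counts divided by gene length and library total, a formula that the headers do not give. Per the submitters' processing notes, the tools were HISAT2 2.1.0, StringTie 2.2.1, HTSeq 0.9.1, fastp 0.22.0 and DESeq 1.38.3, with the GRCm39 build, and no roles or order are given. The strand setting and the handling of reads with several matches are not given in the sources used here. Per the labels' protocols, messenger RNA was selected with poly-T beads and copied from random primers.

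Factor genes were taken by symbol. Counts were tested with edgeR 4.0.16 (TMM scaling, filterByExpr, quasi-likelihood F test) in R 4.3.3 over all 14259 genes that passed the filter, with Benjamini-Hochberg adjustment over all of them and a threshold of 0.05. Count ratios of 11 gene pairs were compared with an exact two-sided permutation test, which cannot go below 0.1 with 3 against 3 libraries. Alternatives, 15 in all, were DESeq2 1.42.0 size factors, no filter, a stricter filter (5 CPM in 3 libraries), DESeq2's Wald test, limma-voom (limma 3.58.1), limma on log2(FPKM + 1) and on log2(FPKM + 0.1), 2 offsets that take out a spline (5 degrees of freedom) on gene length alone or on length and mean expression, and each library left out. Where 1 library was left out, the smaller group had 2. On simulated counts with 200 changed genes among 14259, edgeR recovered 27.8% of 2-fold and 86.7% of 4-fold changes with 10 false calls. Simulated counts with a length trend gave 3424 false calls, and 6 with the length offset. That trend was set by hand on the same log2 length that the offset models, so its removal was built in.

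Genes named in full were the 4 eIF2 kinases, the members of the gene pairs and the 3 genes with the smallest p in each complex or pathway list. Any others were named after their values were seen. The members, lists and pairs were chosen with earlier results of these data known. The comparison of genes with at least 20 CPM and the promoter motifs were added after seeing the data, and motifs were searched in RefSeq sequences of another build (GRCm38.p6), matched by symbol. Factor genes on chromosome 18 have no sequence printed.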

Additional observations from a re-analysis of the deposited data

How the results depend on the processing

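The count of factor genes called moved with the scaling: both FPKM scales called 18 higher and 12 lower, and 17 were higher and 16 lower with length and mean expression taken out. The other settings that kept all libraries gave 6 to 11 higher and 29 to 34 lower, and leaving out each library in turn gave 7 to 12 higher and 26 to 37 lower. No gene called with TMM was called in the opposite direction in any alternative. The sign of some log2 fold changes turned, including those of Eif5a, Eif4a2 and Eif2ak1, which were called lower with TMM. The median over the 65 tested factor genes went from -0.57 with TMM to 0.055 on log2(FPKM + 1). Other factor genes turned too, among them Eif3g. The log2 fold changes that follow are only those of genes named in full. On log2(FPKM + 1) and log2(FPKM + 0.1), in that order, they were 0.018 and 0.024 for Eif2ak1, 0.23 and 0.35 for Eif2ak3, 0.51 and 0.51 for Eef1a1, 0.21 and 0.24 for Eif4e3, 0.28 and 0.34 for Eif2s3x, 0.35 and 0.36 for Eef2, 0.33 and 0.35 for Eif2s2, 0.42 and 0.50 for Eif2d, and 0.055 and 0.062 for Eif4enif1. With the length offset they were 0.016 for Eef1a1 and -0.18 for Eif4g3. With length and mean expression taken out they were 1.12 for Eef1a1, 0.14 for Eif4a2, 0.014 for Eif4a1, 0.080 for Eif5a, 0.79 for Eef2 and 0.10 for Eif2s2. For each, the cause was not tested. Leaving out each library gave -0.42 to 0.26 for Eef1a1, the highest without control replicate 5, -0.18 to 0.27 for the log2 ratio difference of Eif4a2 to Eif4a1 and -0.29 to 0.081 for that of Eif4ebp2 to Eif4ebp1. No paired analysis was possible because the replicate numbers are 1 to 3 in CCI and 4 to 6 in control. The libraries were 3 a group, with 7989139 to 15438268 counts each. A factor gene that did not pass is not shown to be alike in both groups. The share of changes recovered in simulation does not measure the power of this comparison. The simulation had 200 changed genes among 14259, whereas 52.3% of all tested genes were called here.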
